A study of Mus musculus with 48 samples.

Results

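A set of 8 genes that glucocorticoid hormones are known to regulate, Fkbp5, Tsc22d3, Sgk1, Zbtb16, Pdk4, Errfi1, Plin4 and the receptor gene Nr3c1, were followed through the first week after a stroke in the mouse cortex. They are 8 of the 46983 genes counted in each library, chosen by name with earlier results of these data known. All 8 passed the filter on low counts. Glucocorticoids were neither given nor measured here, so the name of the set rests on general knowledge of these genes.

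The RNA came from male C57Black/6 mice of 3 months. By the study's methods the tissue was the injured part of the cortex, taken with both affected and unaffected tissue. The study's results text instead speaks of nearly the whole hemisphere on the injured side, and the sources used here do not settle which holds. In the MCAO groups the middle cerebral artery was closed for good, by coagulation and cutting, under isoflurane through a hole drilled in the skull. Sham mice had that surgery without the coagulation, and controls were intact cortex of mice of the same age. There were 4 control libraries, 4 sham libraries at each of 3 h, 12 h, 24 h, day 3 and day 7, and 5 MCAO libraries at each time (4 at 24 h), 48 in all. All mice were anesthetized with pentobarbital and perfused when tissue was taken. The shams carry the anesthesia and surgery without the occlusion, so sham against control gives the difference that goes with surgery, and MCAO against sham the difference that goes with the occlusion. Controls had no surgery, so anesthesia, skull drilling and handling cannot be told apart. The hour of the day at which mice were killed is not given in the sources used here.

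Glucocorticoids (corticosterone in mice) are adrenal steroids released under stress. They bind the glucocorticoid receptor, a transcription factor held in the cytoplasm by chaperones, which then enters the nucleus and acts at DNA elements of its target genes. In the brain these target genes are expressed in neurons, glia and vessels, and several of them damp the hormone signal or inflammation. Fkbp5 encodes a co-chaperone that lowers the receptor's affinity for hormone, Tsc22d3 encodes the anti-inflammatory protein GILZ, Sgk1 encodes a kinase that acts on ion channels, and Zbtb16 encodes the transcription factor PLZF. Errfi1 encodes a feedback inhibitor of the EGF receptor, Pdk4 a kinase that restrains the use of glucose by mitochondria, and Plin4 a coat protein of lipid droplets.

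The element that the receptor is best known to bind is a pair of 6-base sites, and it was looked for around the starts of these genes, since several of them were high together at 3 h. Windows of 300 bases, from 250 before to 50 after each start, were available for 6 of the 8 genes (14 windows, RefSeq, GRCm38.p6). The single site AGAACA was in 4 of the 14 windows on either strand and in 19% of all 32851 windows. The whole element, AGAACA, then any 3 letters, then TGTTCT, was in 1 of the 14 windows, one of the 6 windows of Sgk1, and in 3 of all windows (0.00913%). It is shown with the bases around it because it is the only such match among these genes, with both sites in capitals, and it lay 189 to 175 bases before that start.
Sgk1, chr10:21993641-21993775, GRCm38.p6, plus strand: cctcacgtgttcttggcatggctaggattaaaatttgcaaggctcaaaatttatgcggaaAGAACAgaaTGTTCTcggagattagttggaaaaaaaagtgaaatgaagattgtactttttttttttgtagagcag
These matches describe the letters in the windows only.

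Depth was even, between 1522668 and 2826735 reads assigned to genes per library (median 1935856). Values are given below as CPM (reads per 1000000 reads in genes, scaled between libraries with TMM factors), with the SD over libraries. A gene was called where edgeR's quasi-likelihood test gave a Benjamini-Hochberg adjusted p under 0.01 over all 19970 genes tested and the log2 fold change was beyond 0.58. All 6 markers of neurons were detected in every library, as were those of astrocytes, oligodendrocytes, microglia, endothelium and cortical neurons. The summed level of the 6 cortical neuron markers was 329.6 to 427 CPM in MCAO on day 7 and 580.0 to 892 in sham. Over the same libraries the microglial sum was 732 to 2916 in MCAO and 377 to 511 in sham. In such bulk tissue, fewer cells of a type and less RNA per cell cannot be told apart. One control library (replicate A) held 502 CPM of choroid plexus markers, which were at most 6.18 in the other controls. Striatal markers were present too, with sums from 85.7 CPM (a library of MCAO on day 7) to 2334 CPM (a library of MCAO at 24 h).

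Across all libraries the 8 genes lay at very different levels. Nr3c1 (97.4 CPM on average), Tsc22d3 (72.5), Sgk1 (55.4), Fkbp5 (27.3), Zbtb16 (23.3) and Errfi1 (14.0) were detected in all 48 libraries. QuantSeq reads come from the 3′ end, with a single site per transcript as the aim, so these levels need no correction for transcript length, though each still depends on how well that end was counted. Plin4 averaged 3.63 CPM and was at 0 in 6 libraries. Pdk4 had 37 reads in all, at most 4 in any library and 0 in 25 of them, too few at this depth to judge a group difference in Pdk4. It is left out of what follows, except where all 8 genes are counted. In GRCm38, Fkbp5 lies at chr17:28399094-28517527, Tsc22d3 at chrX:140539528-140600659 and Zbtb16 at chr9:48654297-48836222, all on the minus strand, and Sgk1 at chr10:21882184-21999903 and Errfi1 at chr4:150853919-150868892 on the plus strand. No other gene with more than 4 reads overlaps these 5.

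**Figure D1:**
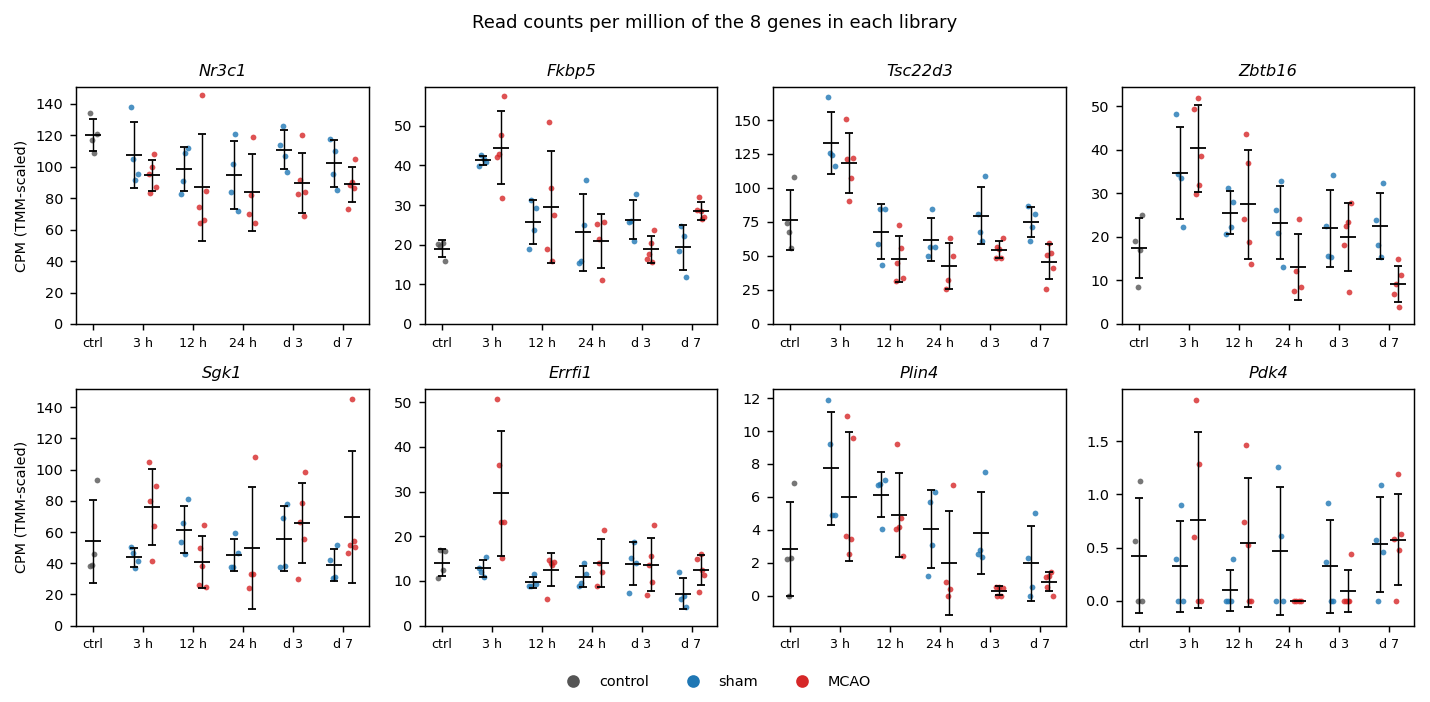
CPM of each of the 8 genes (vertical axes, linear) in the control libraries and, by time after surgery (horizontal axes), in sham (blue) and MCAO (red) libraries; each point is a library, and bars give the mean and SD. Fkbp5 stood at 39.9 to 42.6 CPM in the 4 sham libraries of 3 h and at 16.0 to 20.3 in controls, and Pdk4 stayed under 2 CPM in every library.

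The clearest pattern was at 3 h, and it was present in both sham and MCAO. Fkbp5, Tsc22d3 and Zbtb16 had their highest group means of the whole series in the sham and MCAO groups of 3 h, while Sgk1 and Errfi1 had their highest mean in MCAO of 3 h and ranked 9 and 6 of 11 in sham of 3 h. None of the 8 genes was called in sham against control at 3 h, nor was any gene of the whole table (percentage called, 0%). Of the 8 genes, 4 had an unadjusted p under 0.05, Fkbp5, Tsc22d3, Zbtb16 and Plin4, against 3.69% of all genes tested. DESeq2 called none of the 8 either.

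Fkbp5 stood at 20.1, 19.7, 20.3 and 16.0 CPM in the 4 controls and at 39.9, 42.6, 41.7 and 40.9 in the 4 shams of 3 h. In MCAO at 3 h it stood at 42.2, 43.0, 47.8, 31.9 and 57.4 CPM. All 9 operated libraries were above all 4 controls, as for 0.23% of all genes, and the shams lay close together, with an SD of 1.14 CPM around 41.3. Sham was 2.17 times control (log2 fold change 1.11, SE 0.27, unadjusted p = 0.000138 by edgeR, adjusted p = 0.393). MCAO was 2.33 times control (1.22, SE 0.26, edgeR adjusted p = 0.0117), just short of the threshold. MCAO and sham differed by 0.11 on the log2 scale at this time (SE 0.24, 95% interval -0.36 to 0.58, edgeR adjusted p = 0.969). Both 3 h groups together against control, a comparison added after the values had been seen, gave 1.17 (SE 0.24, edgeR adjusted p = 0.0387), with 0 of the 8 genes called against 0.015% of all genes.

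The call for Fkbp5 in MCAO against control depended on how the test was set up. It passed with DESeq2 (log2 fold change 1.24, adjusted p = 0.000569), with DESeq2's size factors in edgeR (adjusted p = 0.00985), under the other 2 filters, with only both groups in the edgeR fit (adjusted p = 0.000223), and without MCAO replicate D (1.32, adjusted p = 0.00534). In sham against control it passed only with both groups alone in the fit (1.13, edgeR adjusted p = 0.00752), where these tight libraries set their own spread. Over all settings tried, the fold change itself moved between 1.04 and 1.15 in sham and between 1.11 and 1.32 in MCAO.

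Tsc22d3 was the most abundant of the genes that were high at 3 h. It stood at 74.2, 67.5, 55.9 and 108 CPM in controls, at 167, 126, 124 and 116 in shams of 3 h and at 151, 121, 90.6, 107 and 122 in MCAO of 3 h. Every sham was above every control, while MCAO and control overlapped because of control replicate D. The log2 fold change was 0.80 in sham (SE 0.25, edgeR adjusted p = 1) and 0.63 in MCAO (SE 0.24, edgeR adjusted p = 0.335). MCAO against sham gave -0.17 (SE 0.23, 95% interval -0.62 to 0.28). Together with Fkbp5 this made 2 of 8 genes with all shams above all controls at 3 h, against 1.32% of all genes, and 0 of 8 with all shams below, against 1.69%.

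Zbtb16 followed the same course with more spread. Controls stood at 19.0, 8.43, 16.9 and 25.1 CPM, shams of 3 h at 48.2, 34.5, 33.6 and 22.3, and MCAO of 3 h at 49.4, 29.8, 52.0, 31.9 and 38.7. Only 1 sham library lay within the range of the controls, and MCAO lay wholly above it. The log2 fold change was 1.00 in sham (SE 0.37, edgeR adjusted p = 1) and 1.21 in MCAO (SE 0.35, edgeR adjusted p = 0.114). With only both groups in the edgeR fit, MCAO against control passed (1.24, adjusted p = 0.00257). In MCAO against control at 3 h none of the 8 genes was called, against 0.13% of all genes. In that comparison Fkbp5 and Zbtb16 were wholly above control, against 2.74% of all genes, and Nr3c1 wholly below, against 2.29%.

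Plin4 was highest in the same shams, at 11.9, 9.21, 4.93 and 4.91 CPM, from 9 to 30 reads each. Controls stood at 2.23, 0, 2.26 and 6.85 CPM, the last of them control replicate D, which overlapped the shams. The log2 fold change was 1.44 (SE 0.70, edgeR adjusted p = 1) and 2.33 without that library (adjusted p = 1). Control replicate D was also the highest control for Tsc22d3, Zbtb16 and Sgk1, and the lowest for Fkbp5. Without it, sham against control at 3 h gave 1.04 for Fkbp5, 1.02 for Tsc22d3 and 1.23 for Zbtb16, and none of the 8 was called.

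Sgk1 and Errfi1 did not share the sham pattern at 3 h. Sgk1 stood at 38.5, 38.8, 45.7 and 93.6 CPM in controls and at 50.2, 46.6, 36.8 and 41.4 in shams (log2 fold change -0.31, SE 0.38, edgeR adjusted p = 1). That difference turned to 0.09 without control replicate D. Errfi1 stood at 10.6, 16.9, 12.4 and 16.6 CPM in controls and at 13.0, 12.1, 10.8 and 15.3 in shams (-0.14, SE 0.34, edgeR adjusted p = 1). Both groups overlapped throughout for these genes, and Sgk1 is the gene with the whole element shown above.

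Fkbp5 lay closer to control in the later shams than at 3 h. It averaged 25.8 CPM at 12 h, 23.1 at 24 h, 26.4 on day 3 and 19.3 on day 7, against 41.3 at 3 h and 19.0 in controls. Its log2 fold change against control was 0.44, 0.29, 0.47 and 0.02 in turn (SE 0.27 or 0.28 each). Tsc22d3 gave -0.17, -0.30, 0.06 and -0.03 and Zbtb16 gave 0.56, 0.41, 0.34 and 0.38 at those times. Plin4 gave 1.09, 0.52, 0.40 and -0.49 (SE 0.71 to 0.80), and Sgk1 gave 0.19, -0.26, 0.04 and -0.47. Errfi1 and Nr3c1 took another course, at -0.14 and -0.16 at 3 h and at -0.54 and -0.28 at 12 h, -0.36 and -0.35 at 24 h, -0.04 and -0.12 on day 3 and -0.99 and -0.24 on day 7. For Fkbp5 the day 3 shams, at 25.7, 25.9, 21.0 and 32.8 CPM, were still all above the controls, 1 of 8 genes against 1.44% of all genes. None of the 8 was called in sham against control at the later times by edgeR, against 0.0351% of all genes at 12 h, 0.01% at 24 h, 0% on day 3 and 0% on day 7. DESeq2 called none at these times, and the number with an unadjusted p under 0.05 was 0, 0, 0 and 1, against 5.43%, 4.31%, 3.66% and 8.03% of all genes. The 1 was Errfi1 on day 7 (-0.99, SE 0.37, edgeR adjusted p = 0.578).

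Among the 8 genes Tsc22d3 had the largest fitted difference between shams of 12 h and 3 h, Pdk4 aside. At 12 h the shams stood at 58.6, 84.5, 43.6 and 84.9 CPM, all below those of 3 h (log2 fold change -0.97, SE 0.25, edgeR adjusted p = 0.403). Fkbp5 at 12 h, at 19.0, 31.3, 23.7 and 29.2 CPM, was also wholly below its 3 h level (-0.67, SE 0.26, edgeR adjusted p = 0.958). These were 2 of the 8 genes, against 1.17% of all genes in that comparison, where 0.015% of genes and 0 of the 8 were called. The difference between the 2 genes was not tested.

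The shams of 3 h were then compared with the 16 later shams, another comparison added after the values had been seen. Fkbp5 and Tsc22d3 were in every sham of 3 h above every later sham, 2 of 8 genes against 0.0501% of all genes (10 of 19970). Tsc22d3 gave a log2 fold change of 0.91 (SE 0.18, edgeR adjusted p = 0.04) and Fkbp5 one of 0.81 (SE 0.20, edgeR adjusted p = 0.263). Neither was called, against 0.01% of all genes, and Tsc22d3 passed where no filter on low counts was used (0.91, edgeR adjusted p = 0.00356). Zbtb16 gave 0.58 (SE 0.27) and Plin4 1.06 (SE 0.50), with adjusted p = 0.865 each.

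**Figure D2:**
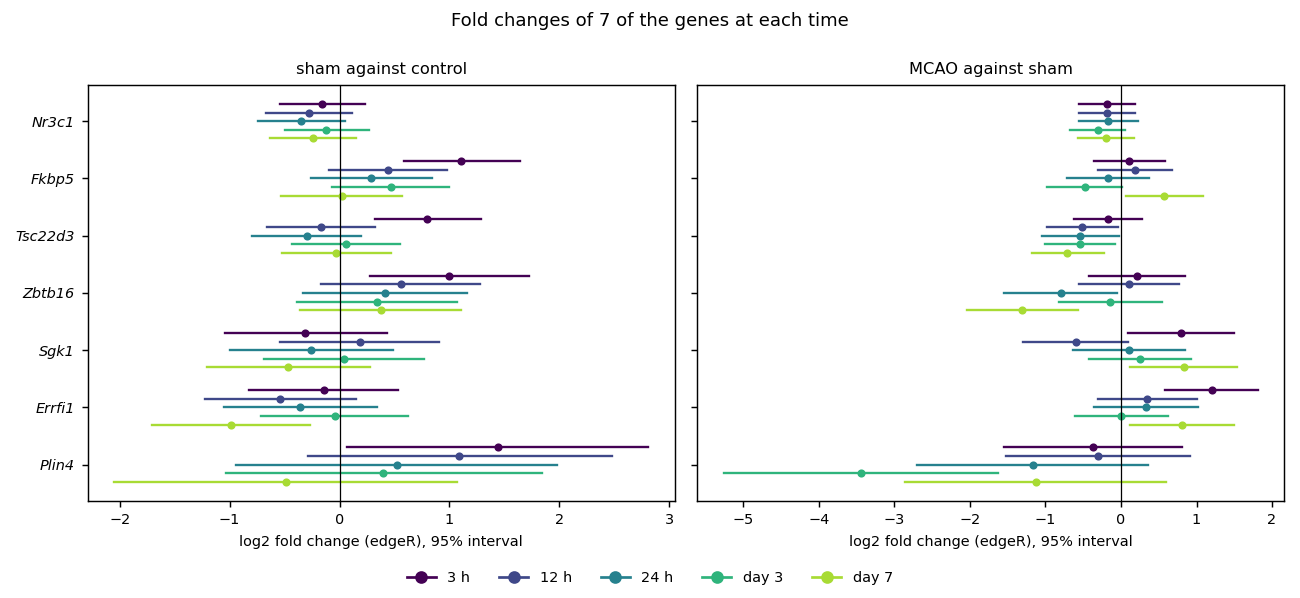
Log2 fold change by edgeR (horizontal axes, with different ranges in the 2 panels) of 7 genes (rows) in sham against control (left) and MCAO against sham (right), with 95% intervals; colors mark the times. In sham against control the intervals of Fkbp5, Tsc22d3, Zbtb16 and Plin4 lay above 0 at 3 h, and in MCAO against sham Plin4 on day 3 lay furthest from 0, at -3.44.

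The occlusion itself, as MCAO against sham, gave another picture. None of the 8 genes was called at any single time by edgeR, against 0.11% of all genes at 3 h, 0.411% at 12 h, 0.0901% at 24 h, 4.02% on day 3 and 3.5% on day 7. The numbers with an unadjusted p under 0.05 were 2, 1, 3, 2 and 5 of 8, against 8.45%, 14.6%, 8.8%, 21.6% and 23.5% of all genes. Pdk4 was among the 3 at 24 h, with 0 reads in MCAO and 3 in sham. DESeq2 called Plin4 on day 3 and Zbtb16 on day 7 and none of the 8 at the other times. These comparisons share their shams with those of sham against control.

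Errfi1 and Sgk1 were the genes with an unadjusted edgeR p under 0.05 in MCAO against sham at 3 h, both higher in MCAO. Zbtb16 (0.21, SE 0.33) and Fkbp5 (0.11, SE 0.24) were fitted higher by less. Errfi1 was at 50.6, 35.9, 23.1, 15.1 and 23.2 CPM in MCAO and at most 15.3 in sham, so 4 of the 5 MCAO libraries were above every sham. The log2 fold change was 1.20 (SE 0.32, 95% interval 0.58 to 1.81, edgeR adjusted p = 0.0872), and over all settings it lay between 0.92 and 1.36 without being called. By 12 h Errfi1 was back at 12.5 CPM (SD 3.68, n = 5) in MCAO. Sgk1 was at 105, 79.9, 41.5, 63.8 and 89.7 CPM in MCAO of 3 h, with 4 of 5 libraries above every sham (0.79, SE 0.36, edgeR adjusted p = 0.54). At 12 h its order was the other way round, at 25.0 to 64.7 CPM in the 5 MCAO libraries (median 38.1) and 53.6, 65.7, 46.2 and 81.0 in sham (-0.60, SE 0.35, edgeR adjusted p = 0.439). The difference between both times had a log2 value of -1.40 (SE 0.50, edgeR interaction, unadjusted p = 0.00757, adjusted p = 0.598). Markers of oligodendrocytes and striatum had the same sign in that interaction, with medians of -0.96 (4 of 6 genes with an unadjusted p under 0.05) and -2.35 (3 of 5). The striatal sum was 1357 and 1224 CPM in MCAO replicates A and B of 3 h, which were among the 3 highest for Sgk1, and 237 to 431 in the other 3. At 12 h it was 276 to 1041 CPM in MCAO and 279 to 1496 in sham. The sham library of 12 h with 1496 CPM, replicate A, was at 53.6 CPM of Sgk1. With group means taken out, Pearson's r over the 48 libraries between Sgk1 and the striatal sum was 0.17. With the oligodendrocyte sum it was 0.37. The part of tissue makeup in these Sgk1 values was not tested.

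Plin4 was nearly absent in MCAO on day 3. The 5 MCAO libraries held 1, 0, 1, 0 and 1 reads, and the 4 shams 7, 6, 5 and 16, or 2.34 to 7.50 CPM. All MCAO libraries were below all shams, the only one of the 8 genes to be so, against 2.81% of all genes below and 4.33% above. Over summed libraries the ratio of MCAO to sham was 0.0809 (3 against 34 reads, exact 95% interval 0.0159 to 0.257, for counting error only). The log2 fold change was -3.44 (SE 0.93, edgeR adjusted p = 0.0121), and it passed with spike-in scaling (-3.66, adjusted p = 0.00786), with no filter (-3.46, adjusted p = 0.00425) and with DESeq2 (-3.68, adjusted p = 0.00614). Leaving out sham replicate D, the highest, gave -2.91 (adjusted p = 0.0796). The same MCAO libraries held 589.9 to 2153 CPM of microglial markers, against 256 to 356 in sham, and 78.1 to 1316 of fibroblast markers, against 75.0 to 144. Their neuronal sum was 4562 to 7100 CPM, against 6991 to 8161 in sham, and the part of these markers in the Plin4 values was not tested. On day 7 the Plin4 counts were low in both groups, 0 to 3 reads in MCAO and 0 to 11 in sham (-1.13, SE 0.88, edgeR adjusted p = 0.465). Plin4 lies at chr17:56100591-56109803 (GRCm38) on the minus strand and overlaps Hdgfl2 on the other strand, so reads could be shared between the 2 genes if strand was not used in counting, which the sources used here do not state.

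Day 7 set Fkbp5 against Tsc22d3 and Zbtb16. Zbtb16 stood at 6.92, 9.16, 14.9, 3.84 and 11.3 CPM in MCAO and at 24.0, 18.2, 15.3 and 32.4 in sham. MCAO lay wholly below sham, and its mean of 9.21 CPM was the lowest of the 11 groups. The log2 fold change was -1.31 (SE 0.38, edgeR adjusted p = 0.0202), past the threshold with DESeq2 (-1.30, adjusted p = 0.00704) and with no filter (-1.33, adjusted p = 0.00486). It lay between -1.56 and -1.09 over all settings.

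Tsc22d3 on day 7 stood at 25.4, 50.9, 59.5, 52.3 and 41.3 CPM in MCAO and at 86.4, 61.1, 71.4 and 81.2 in sham, again with no overlap (-0.71, SE 0.24, edgeR adjusted p = 0.0547). Fkbp5 went the other way, at 28.8, 32.1, 28.6, 26.4 and 26.9 CPM in MCAO and at 18.3, 24.7, 22.3 and 11.9 in sham (0.57, SE 0.26, edgeR adjusted p = 0.171). All 5 MCAO libraries were above all shams and all controls for Fkbp5, against 3.92% of all genes wholly above control. Of the 8 genes, 1 was thus wholly above sham, against 5.38% of all genes, and 2 were wholly below, against 5.1%. On day 3 the Fkbp5 difference had been -0.48 (SE 0.25), and the change from day 3 to day 7 was 1.05 (SE 0.36, edgeR interaction, adjusted p = 0.152). None of the 8 genes was called in that interaction, nor was any gene of the whole table (0%).

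Sgk1 on day 7 rested on a single library. MCAO stood at 46.7, 51.9, 145, 54.2 and 50.7 CPM and sham at 42.3, 30.8, 31.1 and 52.0 (0.83, SE 0.36, edgeR adjusted p = 0.145). Without MCAO replicate C, the library at 145 CPM, the log2 fold change was 0.36 (adjusted p = 0.586). That library also held 5463 CPM of fibroblast markers, against 164 to 508 in the other 4, and 2916 CPM of microglial markers, against 732 to 1070. Similarly, MCAO replicate D of 24 h was at 108 CPM of Sgk1, where the other 3 were at 24.2 to 33.2, and it held 2334 CPM of striatal and 4625 of oligodendrocyte markers. Whether these cells carried the Sgk1 reads was not tested.

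**Figure D3:**
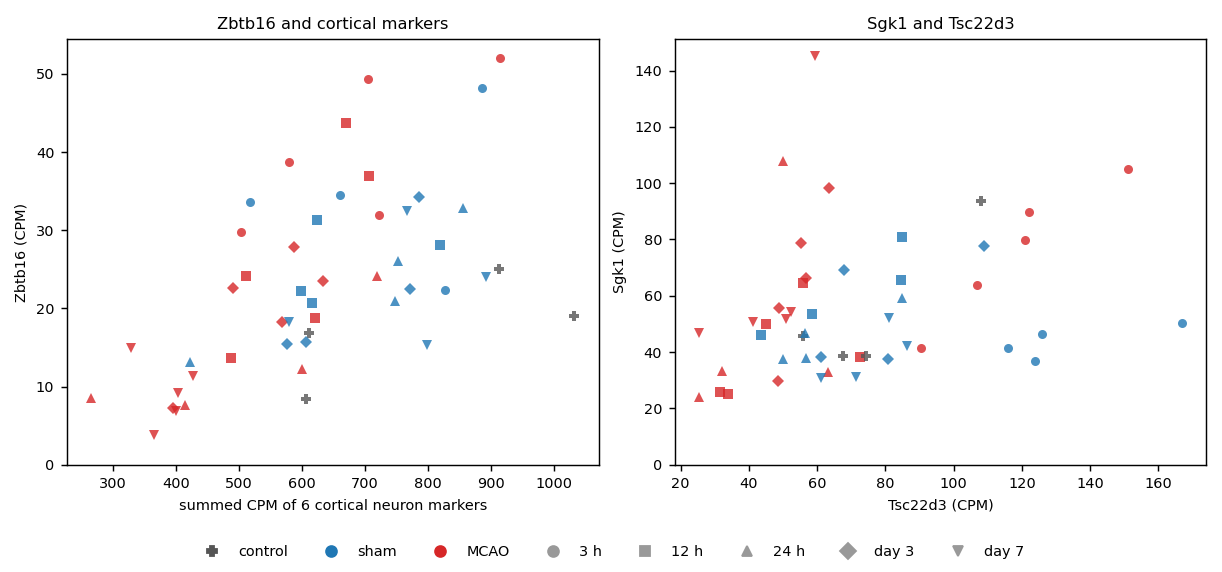
Left, CPM of Zbtb16 against the summed CPM of 6 cortical neuron markers, and right, CPM of Sgk1 against that of Tsc22d3, in all 48 libraries; color gives the condition and the symbol the time. The 5 MCAO libraries of day 7 sit at 329.6 to 427 CPM of cortical markers and 3.84 to 14.9 CPM of Zbtb16, at the lower left.

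Zbtb16 and Nr3c1 moved with the markers of cortical neurons from library to library. After group means were taken out, Pearson's r over the 48 libraries between Zbtb16 and the summed cortical markers was 0.61, and with the striatal markers it was -0.50. For Nr3c1 the values were 0.58 and -0.40. Libraries share dissection and depth, so these are descriptions, and the part of tissue makeup in the day 7 values of Zbtb16 was not tested.

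Nr3c1, the receptor gene, ran from 64.1 to 146 CPM over all libraries. Controls stood at 134, 117, 109 and 121 CPM and had the highest mean of the 11 groups, 120.3 CPM, and the lowest mean was 83.9 CPM, in MCAO of 24 h. In MCAO of 3 h it stood at 95.2, 83.2, 99.8, 108 and 87.0 CPM, all below control (-0.35, SE 0.19, edgeR adjusted p = 0.591). MCAO against control gave -0.47 at 12 h, -0.52 at 24 h, -0.43 on day 3 and -0.44 on day 7, with edgeR adjusted p from 0.18 to 0.277. Nr3c1 in MCAO of day 7, at 73.3 to 105 CPM, was also below every control. Against sham the fitted values ran from -0.31 to -0.17 over the 5 times, all on the same side with adjusted p of 0.342 or more. In MCAO against control none of the 8 genes was called at the later times either, against 0.856% of all genes at 12 h, 0.28% at 24 h, 3.1% on day 3 and 1.5% on day 7.

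MCAO against sham was also averaged over the 5 times, the third comparison added after the values had been seen. Plin4 was called lower (-1.28, SE 0.35, edgeR adjusted p = 0.00787), 1 of 8 genes, against 0.386% of all genes called lower and 4.89% called in either direction. This call was lost with a replicate block (-1.26, adjusted p = 0.0116) and without any one of 20 of the 44 libraries, where the adjusted p reached 0.0471. The mean covers unequal values of Plin4, -0.37, -0.30, -1.17, -3.44 and -1.13 in the order of the times. Tsc22d3 was lower by less than the threshold but with a small error (-0.49, SE 0.11, adjusted p = 0.000827), its values being -0.17, -0.51, -0.54, -0.54 and -0.71 in that order. Errfi1 was higher, also inside the threshold (0.54, SE 0.15, adjusted p = 0.00954), with 1.20, 0.34, 0.33, 0.00 and 0.81. Fkbp5 showed 0.04 (SE 0.11, 95% interval -0.18 to 0.27).

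The order of group means shows how far these genes follow the same course. For Fkbp5 the 2 groups of 3 h (44.5 ± 9.28 CPM in MCAO and 41.3 ± 1.14 in sham, SD, n = 5 and 4) came first, then MCAO of 12 h (29.5 ± 14.0) and of day 7 (28.6 ± 2.22), and last control (19.0 ± 2.04) and MCAO of day 3 (18.8 ± 3.33). For Tsc22d3 the groups of 3 h again led (133 ± 22.9 in sham and 118 ± 22.1 in MCAO), then came all other sham and control groups, and the MCAO groups from 12 h on took the last 4 places, at 54.6 down to 42.7 CPM. For Zbtb16 the order began with MCAO (40.4 ± 10.1) and sham (34.7 ± 10.6) of 3 h and closed with MCAO of 24 h (13.1 ± 7.60) and day 7 (9.21 ± 4.20). Over the 7 genes with enough reads, neighbors in this order differed by more than the larger of their SDs at 2 places only, between MCAO of 3 h and sham of day 3 for Tsc22d3, and between MCAO of 3 h and control for Errfi1 (29.6 ± 13.9 and 14.1 ± 3.10 CPM).

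Between single libraries of the same group, some pairs of these genes were linked more closely than others. With group means taken out, r over 48 libraries was 0.64 for Tsc22d3 and Sgk1, 0.59 for Sgk1 and Plin4, 0.55 for Sgk1 and Errfi1 and 0.51 for Tsc22d3 and Zbtb16. For Fkbp5 the values were 0.28 to Errfi1, 0.15 to Sgk1, 0.14 to Plin4, 0.03 to Zbtb16, 0.02 to Tsc22d3 and -0.10 to Nr3c1. Over all 21 pairs of the 7 genes the median was 0.21, and 18 were positive. The points share library depth and dissection, and Sgk1 was also linked to endothelial (0.54) and microglial (0.53) markers, and inversely to neuronal markers (-0.53).

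The 3 genes nearest to each member in log2 CPM over the 48 libraries were listed. Those of Tsc22d3 were Gfod1 (r = 0.76), Cpeb3 (0.75) and the clock gene Per1 (0.75). Those of Sgk1 were Rhob (0.68), Ddit4 (0.67) and Pmepa1 (0.67), and those of Errfi1 Tiparp (0.78), Fosl2 (0.77) and Bcor (0.74). Fkbp5 had the weakest neighbors of these, Dapk1 (0.66), Gse1 (0.62) and Plpbp (0.61).

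A list of 27 other genes known to be induced by glucocorticoids was followed in the same way. It was drawn up with earlier results of these data known, so its shares are descriptions and not independent support. None of the 27 was called in sham against control at any time. The median log2 fold change of the list at 3 h was 0.15, against 0.33 for the 8 genes and -0.01 for all genes. Of the 27, 4 had all shams of 3 h above all controls, against 1.32% of all genes, and 0 had all below, against 1.69%. They were the cell cycle inhibitor Cdkn1a (94.1 to 113 CPM in sham and 36.3 to 72.5 in control), Irs2, an adaptor of insulin signaling (24.0 to 31.6 and 15.2 to 19.4), Mertk, a receptor for the uptake of dying cells (111 to 117 and 60.2 to 95.3), and the metallothionein gene Mt2 (317 to 362 and 211 to 290.1). Their log2 fold changes were 0.83, 0.69, 0.61 and 0.37 in turn, each with an edgeR adjusted p = 1. Irs2 and Mertk were named after their values had been seen. Among the targets named in every case, Per1 stood at 76.0 ± 6.56 CPM (SD, n = 4) in shams of 3 h and 68.3 ± 11.4 in controls, Klf9 at 1081 ± 328 and 880.3 ± 30.9, and Dusp1 at 68.2 ± 17.3 and 66.7 ± 16.7. Sham and control overlapped for these 3. In MCAO of 3 h Per1 stood at 121 ± 32.9 CPM, Klf9 at 1297 ± 228 and Dusp1 at 89.8 ± 45.1 (SD, n = 5). Per1 and Klf9 were there wholly above control, against 2.74% of all genes, while Dusp1 overlapped. None of these 3 was called in MCAO against sham at 3 h.

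In MCAO against sham the same list held called genes. At 12 h the metallothioneins Mt1 (1.05, SE 0.19) and Mt2 (1.52, SE 0.28) and Cdkn1a (1.48, SE 0.32) were higher, with edgeR adjusted p of 0.000994, 0.00119 and 0.009. Mt1 was higher at 24 h too (1.00, SE 0.19, adjusted p = 0.00649). On day 3 Cebpd, a transcription factor of the acute phase, was higher (2.30, SE 0.51, adjusted p = 0.00178), with Angptl4, an inhibitor of lipoprotein lipase (3.50, SE 0.80, adjusted p = 0.00273), and Mt1 (0.72, SE 0.19, adjusted p = 0.00838). On day 7 only Gpd1, a glycerol phosphate dehydrogenase, was called, and lower, at 34.3 ± 4.94 CPM in MCAO and 68.8 ± 18.5 in sham (SD, n = 5 and 4, adjusted p = 0.00428). Mt1 and Gpd1 were named after their values had been seen, to complete the called genes. Thus 0, 3, 1, 3 and 0 of 27 were called higher at the 5 times, against 0.0901%, 0.346%, 0.0801%, 3.76% and 2.07% of all genes, and 0, 0, 0, 0 and 1 lower, against 0.02%, 0.0651%, 0.01%, 0.26% and 1.43%.

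**Figure D4:**
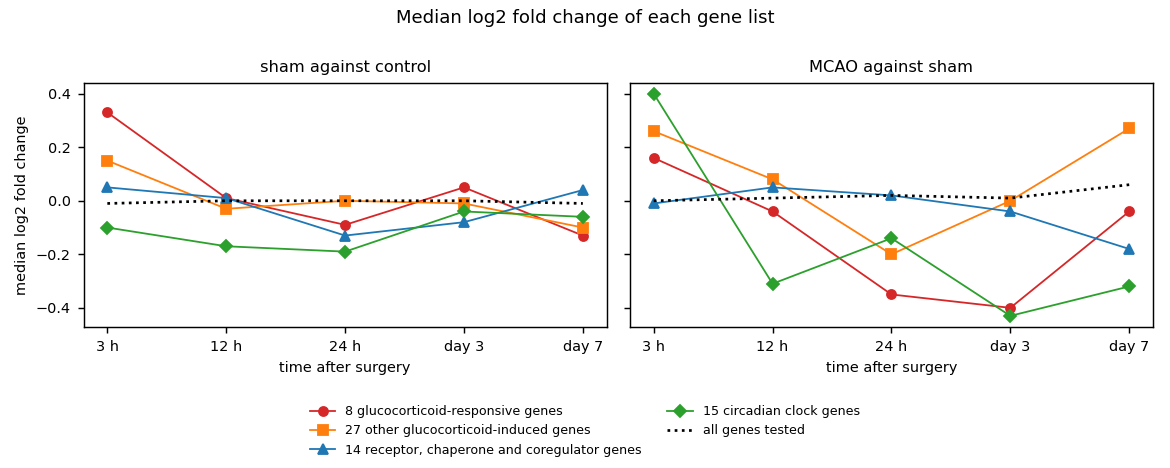
Median log2 fold change (vertical axis, shared) of the 8 genes and of 3 other lists at each time (horizontal axis), in sham against control (left) and MCAO against sham (right); the dotted line is the median of all genes tested. The 8 genes, Pdk4 included, had the highest median in sham against control at 3 h, 0.33, and the second lowest in MCAO against sham on day 3, -0.40.

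The machinery of the receptor was followed with another list, also drawn up with earlier results of these data known. Of 14 genes for the mineralocorticoid receptor, the corticosterone-regenerating enzyme Hsd11b1, chaperones and coregulators, 2 were called higher in MCAO at 12 h, both Hsp90 genes of the cytosol: Hsp90aa1 (0.72, SE 0.16, edgeR adjusted p = 0.00927) and Hsp90ab1 (0.61, SE 0.12, adjusted p = 0.00254). That is 2 of 14, against 0.346% of all genes called higher at 12 h. None was called in sham against control, nor in MCAO against sham at the other times. Nr3c2, the mineralocorticoid receptor gene, stood at 9.08 ± 4.11 CPM (SD, n = 4) in shams of 3 h and 7.76 ± 3.14 in controls, and Hsd11b1 at 6.64 ± 2.26 and 7.61 ± 3.08.

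Clock genes were followed because corticosterone and several of these genes cycle with the day. This list too was drawn up with earlier results of these data known. Of 15 clock genes none was called in sham against control, and the median was -0.10 at 3 h. In MCAO against sham, Dbp was called lower at 12 h (-1.21, SE 0.25, edgeR adjusted p = 0.00645), and Per3 (-0.75, SE 0.18, adjusted p = 0.00438) and Hlf (-1.14, SE 0.25, adjusted p = 0.00209) on day 7. These were 1 and 2 of 15 genes, against 0.0651% and 1.43% of all genes called lower. The clock median in MCAO against sham was 0.40 at 3 h and -0.43 on day 3. Whether the hour of collection differed between groups was not tested.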

How the data were processed

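Whole RNA of 48 samples was sequenced from the 3′ end (QuantSeq 3′ FWD, single-end reads of a NextSeq instrument, with ERCC spike-ins). Per the labels and the study's methods, the authors trimmed reads, removed rRNA and mitochondrial reads, aligned with STAR 2.5.2b to GRCm38 plus the spike-in sequences and counted reads per gene with HTSeq, and they deposited raw counts for each library, which were used here. Their normalized matrix was not used. Counting was not stated to use strand in the sources used here. Library replicates carry letters, no source says that letters mark shared animals or days, and p-values measure the spread between these libraries. Summary lines of the count tables (reads in no gene, 21.6 to 31.3% of all in a table, and reads aligned to several places, 24.5 to 38%) and the 92 spike-ins stayed out of library sizes and tests. 46488 of 46983 gene IDs had a symbol in the reference annotation of the same build.

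All 48 libraries entered one edgeR fit (R 4.3.3, edgeR 4.0.16, quasi-likelihood, TMM factors, genes with over 10 counts in all, 19970 tested, 26 comparisons, biological coefficient of variation 24.9%). Calls needed an adjusted p under 0.01 and a log2 fold change beyond 0.58. Alternatives were DESeq2 1.42.0, DESeq2 size factors, spike-in scaling, filterByExpr, no filter, a replicate block, only the groups compared, and each library left out in turn. The code was tested on simulated data. No 2 libraries held identical counts, and the counts were used with 0 columns left unmapped. The 8 genes, the lists and markers were chosen with earlier results of these data known. All 8 genes are named, from each list the 4 genes with the largest fold change among those called against control or sham are named, with Per1, Klf9, Dusp1, Nr3c2 and Hsd11b1 in every case, and nearest genes are the 3 with the highest Pearson's r of log2(CPM + 1) over 48 libraries among genes of at least 10 CPM on average. 95% intervals of fold changes come from the edgeR standard errors, and the interval of a ratio of summed reads is exact.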

Additional observations from a re-analysis of the deposited data

Results flagged for a closer look

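Each of the 7 genes with enough reads was checked for libraries standing far from the rest of their group, in all 11 groups, and 9 of 77 groups held one, where chance alone marks about 5% of groups. Sgk1 had 3 of them, each a library above the others: control replicate D at 93.6 CPM (others 38.5 to 45.7), MCAO replicate D of 24 h at 108 (24.2 to 33.2) and MCAO replicate C of day 7 at 145 (46.7 to 54.2). Plin4 also had 3: sham replicate C of 12 h was low at 4.07 CPM (6.70 to 7.01), and MCAO replicate D of 24 h at 6.72 (0 to 0.850) and sham replicate D of day 3 at 7.50 (2.34 to 2.77) were high. Control replicate D was the lowest control for Fkbp5, at 16.0 CPM (19.7 to 20.3). Errfi1 in MCAO replicate A of 12 h was low at 5.93 CPM (13.5 to 14.6), and Nr3c1 in MCAO replicate C of 12 h was high at 146 (64.1 to 84.6).

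MCAO replicate D of 24 h was thus high for both Sgk1 and Plin4, and it was the MCAO library of that time with the most striatal markers, 2334 CPM against 183 to 996. Without it, Plin4 in MCAO against sham at 24 h had a log2 fold change of -3.07 (edgeR adjusted p = 0.322), against -1.17 with it. The part of tissue makeup in these values was not tested.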

How the results depend on the processing

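Across the 26 comparisons, the number of the 8 genes called did not change under 453 alternatives and changed under 36. It became 1 in sham against control at 3 h with only the groups compared in the fit, and 2 in MCAO against control at 3 h under that setting. In MCAO against control at 3 h it was 1 with DESeq2 size factors, filterByExpr, no filter or DESeq2, and 0 to 1 with a library left out. In MCAO against sham it became 1 on day 3 with spike-in scaling, no filter or DESeq2, and 1 on day 7 with no filter or DESeq2. Of the added comparisons, both 3 h groups against control gave 1 with no filter, only the groups compared or DESeq2, and 3 h shams against later shams gave 1 with no filter. In the mean of MCAO against sham the call of Plin4 was lost with a replicate block (-1.26), and leaving out a library gave 0 to 1 calls.

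Over the 7 genes with enough reads, 47 of 182 pairs of a gene and a comparison changed sign under some alternative. None of these 47 was called, and 9 of them went beyond 0.58 at some setting. Among them, Sgk1 in MCAO against sham at 24 h ran from -0.60 (without MCAO replicate D) to 0.33, and Plin4 from -1.59 (without sham replicate D) to 0.40 (without control replicate D) in sham against control on day 7. In MCAO against control at 24 h Plin4 ran from -2.54 (without MCAO replicate D) to 0.24 (without control replicate D). Fkbp5 in sham against control gave -0.20 on day 7 with spike-in scaling, and with a library left out -0.13 to 0.22 on day 7 and -0.02 to 0.44 at 24 h. Left-out libraries also took Fkbp5 in MCAO against sham at 3 h to between -0.00 and 0.21, and Sgk1 in sham against control at 3 h to between -0.44 and 0.09. Spike-in scaling shifted the median log2 fold change of all genes by up to -0.28 (MCAO against control, day 3).

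Same-letter libraries deviated together in some pairs only. Over 76 pairs r of their deviations was -0.308 to 0.372 (median 0.0353), with 25 over 0.1. In none of 19 comparisons was every pair over 0.1. For letter C, r was 0.3215 between control and sham of 3 h, and 0.3721 between shams of 3 h and 12 h. Whether letters mark shared animals or days cannot be told from these values. With letters as a replicate block no other call changed, with Fkbp5 in sham against control at 3 h at 1.12. The depth, 1935856 reads in genes in the median library, limits Pdk4 and Plin4 most.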
